A study of Mus musculus with 41 samples.

Results

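Gene counts of 8 IL-33-treated mouse endometriosis lesions were compared, 4 from mice labelled Nmur1iCre-eGFP (Cre controls) and 4 from mice labelled Id2fl/fl (floxed controls). They were taken from a series of 41 bulk RNA-seq libraries in 11 groups by the genotype and treatment in the sample titles. The series' design counts both genotypes, with wild-type C57Bl/6J, as competent for group 2 innate lymphoid cells (ILC2s), and uses mice with both alleles (Nmur1iCre-eGFP Id2fl/fl) as ILC2-deficient. Per the labels' protocols, lesions were started in mice aged 12 to 16 weeks by fixing donor uterine punches (4 mm) to the peritoneal wall with adhesive. From day 7 both control groups received 3 injections of 1 µg IL-33 into that cavity over 6 days, and neither received ILC2s. The Cre is named for Nmur1, a receptor gene used by ILC2s, and the floxed controls carry no label of a Cre, so neither group should lose Id2. The labels do not say whether the Cre is inserted or a transgene, which litters were used, or whether a replicate is an animal, so p-values cover only library-to-library spread, part of which may be technical. Library totals were 31819484 to 44084048 counts in Cre controls and 38513059 to 49470329 in floxed controls.

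ILC2s are tissue lymphocytes without antigen receptors. IL-33, released by stressed or damaged cells, binds their receptor ST2 (gene Il1rl1) and makes them secrete IL-5 and IL-13. IL-13 in turn drives macrophages to express genes such as Arg1 and Chil3, and chemokines such as Ccl24 draw eosinophils. Id2 encodes an inhibitor of E-protein transcription factors that innate lymphoid cells need. Engineered alleles made in embryonic stem cells and then backcrossed keep a stretch of the donor strain's chromosome beside the changed gene. A pair of control lines can therefore differ in linked genes as well as in the allele itself.

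The lesions differed in tissue content. Replicate 3 of the Cre controls held liver transcripts. Its albumin gene Alb stood at 38320 CPM (counts scaled to a common library size), against 0.0234 to 1.26 in the other 7 libraries. The 14 liver genes took 5.66% of its counts and at most 0.00809% elsewhere. The same library was almost free of skeletal muscle, with the muscle actin gene Acta1 at 40.8 CPM against 1352 to 4539 in the other Cre controls and 6078 to 10636 in the floxed controls. Replicate 3 of the floxed controls was low in uterine markers. In it the progesterone receptor gene Pgr stood at 1.5 CPM against 85.8 to 171 in the other 7 libraries, Hoxa11 at 0.351 against 10.9 to 31.8 and the keratin Krt18 at 2.93 against 18.9 to 117. The 16 endometrial epithelium genes took 0.00543% of its counts against 0.0441% to 0.294% elsewhere. The 10 stroma genes together, which include the widely expressed Vim, took 0.193%, within the 0.162% to 0.266% of the other 7. Library names run in separate number ranges in the Cre and floxed controls, so a difference between those runs and one between the genotypes cannot be told apart.

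By edgeR's quasi-likelihood test 70 of 21249 genes (0.329%) differed at a Benjamini-Hochberg adjusted p of at most 0.05, 38 higher and 32 lower in Cre controls, and 56 of them by at least 2-fold. The list is unusual in kind. Of the 70, 42 carry symbols of predicted genes, Rik transcripts or pseudogenes, 23 are annotated as pseudogenes and 34 as protein coding. In 67 of them the 4 libraries of one group lay apart from the 4 of the other. Over all genes 722 (3.4%) had every Cre library above every floxed library and 1300 (6.12%) every one below. An unadjusted p under 0.05 was reached by 3086 genes (14.5%), 1834 higher and 1252 lower in Cre controls, and the median log2 difference over all genes was 0.03. The count of 70 was 66 without replicate 3 of the floxed controls, 70 without replicate 3 of the Cre controls (56 of them shared) and 45 without replicate 1 of the Cre controls. It was 20 in a fit of the 8 libraries alone, of which 18 were among the 70.

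Neither gene that names the alleles differed. Id2 (chr12:25093799-25097140, GRCm38, minus strand) stood at 42.2, 42.6, 61.8 and 30.2 CPM in Cre controls and at 38.8, 43.1, 49.2 and 45.6 in floxed controls. The ranges overlapped, and the log2 difference was 0.00 ± 0.26 (adjusted p = 0.999). Nmur1 (chr1:86386303-86426228) stood at 0.884, 0.642, 0.622 and 1.67 CPM against 0.209, 0.651, 0.258 and 1.8 (0.38 ± 0.83, adjusted p = 0.883). Loss of Id2 in the few cells that use the Cre could not be seen in whole lesions, so these levels do not check the genotypes.

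The called genes gathered on the chromosome of the floxed allele. Chromosome 12 held 25 of the 70 among its 884 tested genes (2.83%, against 0.329% over all genes). Within 10 Mb of the start of Id2, 19 of 118 tested genes were called (16.1%), 9 higher and 10 lower in Cre controls. Within 5 Mb the share was 13 of 56 (23.2%), and between 10 and 20 Mb no further gene was called. On the Nmur1 side, 1 of 197 genes within 10 Mb was called (0.508%). The median log2 difference over all 118 was 0.05, near the 0.03 of all genes. The count of 19 lay between 16 and 19 when any 1 of the 8 libraries was left out, and 8 were called in the fit of the 8 libraries alone. Several of the 19 resemble one another. 2410018L13Rik, Gm40847, Gm48667, Gm5977 and Gm9269 each match 9030624G23Rik at 90.7% to 94.7% of aligned bases, and Gm6969 matches Cox7a2l on chromosome 17. Whether they share reads is unknown, so 19 may overstate the number of separate differences.

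**Figure D1:**
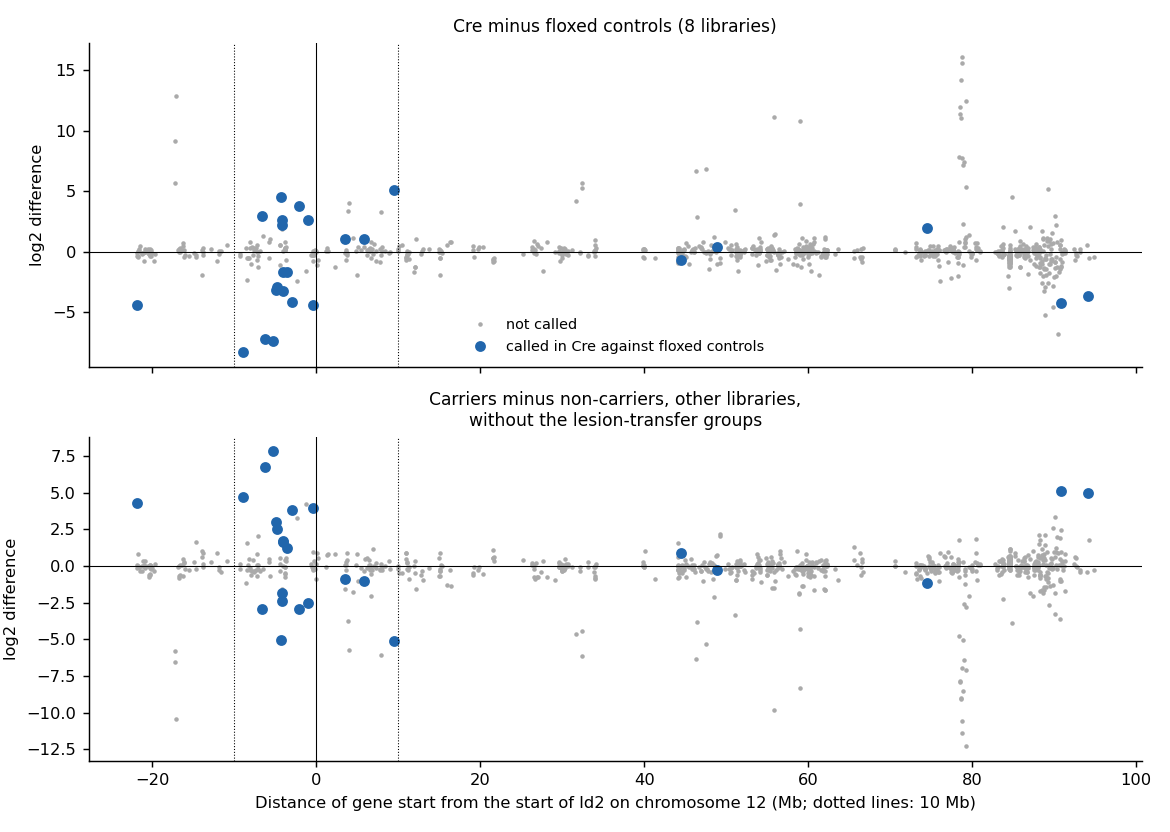
Log2 difference of each tested chromosome 12 gene against the distance of its start from that of Id2 (Mb), in Cre minus floxed controls (top) and in carriers minus non-carriers of the floxed allele among the other libraries, without the lesion-transfer groups (bottom). Blue points are the 25 genes called in Cre against floxed controls; 19 lie within 10 Mb of Id2 (dotted lines) and all 19 have the opposite sign below, where the floxed allele is on the other side of the subtraction.

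Among the named genes of that region, Rps7, which encodes a protein of the small ribosomal subunit (chr12:28630854-28635953), stood at 117, 111, 120 and 117 CPM in Cre controls. In floxed controls it stood at 52.8, 65.9, 58.2 and 54.1 CPM. No floxed library came near the lowest Cre library, and the difference was 2.02-fold (log2 1.01 ± 0.16, adjusted p = 0.000283). Acp1, a low-molecular-weight phosphotyrosine phosphatase gene (chr12:30893326-30911589), was at 19.1, 23.3, 28.2 and 21 CPM against 11.4, 12.6, 10.4 and 9.83. All 4 Cre libraries again lay above, 2.07-fold on average (1.05 ± 0.17, adjusted p = 0.000375). Zfp125, a zinc-finger locus annotated as a transcribed pseudogene (chr12:20877084-20921262), was at 7.96, 6.5, 5.57 and 6.08 CPM against 1.34, 0.821, 0.984 and 1.19, a 6.0-fold difference (2.58 ± 0.37, adjusted p = 0.000112). It overlaps the called transcript 3110053B16Rik (2.17 ± 0.46, adjusted p = 0.0213), and both lie on the minus strand, so the level of either is uncertain where they overlap. The other called genes of the region have Gm or Rik symbols. The largest rises included 1700030C10Rik (4.47), 2410018L13Rik (3.78), 5730507C01Rik (2.95) and 9030624G23Rik (2.64, all log2), and Gm40847 had counts in 1 Cre library alone (0.0247 CPM, against 0.587 to 2.69 in floxed controls, adjusted p = 1.44e-05). Those higher in Cre controls reached 5.11 on the log2 scale (Gm47357, 1.24 against 0.0307 CPM), and Gm48606 and Gm48643 had no count in any Cre library, at 0.562 to 1.61 and 0.364 to 0.594 CPM in floxed controls.

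Several of the genes lowest in Cre controls were pseudogenes with a near-identical parent gene elsewhere. Gm6969 (chr12:24638669-24639010, minus strand) is a processed copy of Cox7a2l (chr17:83501918-83517330, minus strand), whose protein joins respiratory chain complexes. Laboratory mouse strains are known to differ in a short coding deletion of Cox7a2l. Rps7 likewise has a processed copy on the X chromosome, called Rps7-ps3 in the counts and Gm6472 in GENCODE (chrX:152909505-152910155, minus strand). Both pairs are shown because reads from a gene and its copy differ at few bases. The stretches run 5′ to 3′ on the coding strand, from GENCODE M21 transcripts on GRCm38, and capitals mark bases that differ or that one of the pair lacks.
Cox7a2l: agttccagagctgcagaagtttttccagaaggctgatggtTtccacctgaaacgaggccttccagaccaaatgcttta
Gm6969: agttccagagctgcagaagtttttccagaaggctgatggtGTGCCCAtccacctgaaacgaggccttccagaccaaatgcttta
Rps7: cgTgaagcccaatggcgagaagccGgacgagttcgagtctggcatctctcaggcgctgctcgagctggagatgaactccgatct
Gm6472: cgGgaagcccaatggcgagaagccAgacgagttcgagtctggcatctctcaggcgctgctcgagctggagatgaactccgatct
Over the 333 coding bases of Cox7a2l the copy had 2 mismatches and 6 extra bases, all 6 in the stretch shown. Over the 582 coding bases of Rps7 its copy had 3 mismatches.

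Gm6969 stood at 0.737, 0.667, 1.74 and 1.1 CPM in Cre controls and at 21.2, 23.3, 21.5 and 25.9 in floxed controls. The groups were far apart, 21.6-fold (−4.43 ± 0.35, adjusted p = 1.62e-09). Cox7a2l went the other way by less, at 74.9, 77.6, 71.5 and 83.9 CPM against 54.2, 66.9, 51.3 and 52.6 (0.45 ± 0.10, adjusted p = 0.0435). That call was lost without any of 6 libraries (replicates 1, 2 and 4 of the Cre and 1, 3 and 4 of the floxed controls, adjusted p = 0.104 to 0.163). The sum of the pair was 78 ± 5.07 CPM in Cre and 79.2 ± 7.7 in floxed controls (SD, n = 4), and the 2 ranges of sums overlapped. Of the counts given to the pair, Gm6969 held 0.853% to 2.38% in the Cre libraries and 25.9% to 33% in the floxed ones. In IL-33-treated wild-type lesions it held 1.94% to 2.24% and in deficient ones 30.4% to 34.5%.

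The Rps7 pair behaved otherwise. Rps7-ps3 was at 0.442, 0.321, 0.448 and 0.338 CPM in Cre controls against 2.38, 3.11, 2.25 and 1.68 in floxed controls (−2.60 ± 0.23, adjusted p = 6.69e-09). It took at most 4.51% of the pair's counts in any of the 8 libraries, and the sum of the pair stood at 117 ± 3.95 CPM in Cre against 60.1 ± 6.36 in floxed controls. The sum thus differed between the groups nearly as Rps7 itself did. Rps7 has further close copies that this sum leaves out, among them Gm9493 (99.5% of aligned bases) and AC121967.1 (98.6%). The sum therefore cannot show whether reads of Rps7 were given to those copies. Gm7993 (chr5:95974240-95975623) and Gm9260 are processed copies of the ornithine decarboxylase gene Odc1 (chr12:17544794-17551505), which they match at 95.7% and 95.1% of aligned bases. Gm7993 stood at 0.0589, 0.0494, 0.0746 and 0.113 CPM in Cre controls against 6.93, 6.45, 7.96 and 6.03, an 88.2-fold gap with no overlap (−6.46 ± 0.57, adjusted p = 6.69e-09). Odc1 itself was at 54.6 to 67.4 CPM against 43.9 to 55.8 (0.29 ± 0.13, adjusted p = 0.302), and its sum with Gm7993 was 59.9 ± 6.36 against 55.7 ± 5.85 CPM. Gm4742 is a copy of the proteasome gene Psma3 on chromosome 12 (−5.27 ± 0.77, adjusted p = 0.000128), and Ncoa4-ps, named for the ferritin receptor gene Ncoa4, lies at the far end of chromosome 12. Ncoa4-ps varied among the floxed controls, at 4.78, 1.87, 7.52 and 0.728 CPM, all above the 0.173 to 0.354 of the Cre controls (−3.67 ± 0.82, adjusted p = 0.0321).

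Near-identical copies were common in the list as a whole. Of the 67 called genes with a GENCODE transcript, 28 (41.8%) had a second locus matching at least 90% of bases over at least 50% of their length, against 1496 of 20811 genes (7.19%) in the whole table. That criterion was set after the values were seen. How the counting treated reads that fit both loci is unknown from the sources used here, so the level of any one of these 28 is uncertain.

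Called genes on chromosomes 8, 16 and 17 were chosen for description after their values were seen. On chromosome 8, 4 called genes started between 19784746 and 20567597: Gm10060 (−1.52 ± 0.27, adjusted p = 0.00166), Gm40466 (−0.79 ± 0.15, 0.00415), 2610005L07Rik (−0.76 ± 0.11, 0.000119) and Gm21092 (1.49 ± 0.25, 0.000906). Of these 2610005L07Rik had the highest level, at 8.99, 7.71, 8.88 and 8.2 CPM in Cre controls against 14.9, 14.5, 14.3 and 13.4, with no overlap. Chromosome 17 held 6 of the 70 among 939 tested genes (0.639%) and chromosome 16 also 6, among 647 (0.927%). On chromosome 16, Lrrc58 was higher in Cre controls (0.36 ± 0.08, adjusted p = 0.0355), as were the sugar transporter relative Slc35a5 (0.75 ± 0.15, 0.00651) and the long non-coding RNA Dubr (1.57 ± 0.24, 0.000254). Dubr stood at 48.1, 46.2, 28.4 and 42.1 CPM against 10.1, 15, 16.9 and 13.5, with no overlap. These 3 genes do not lie together, starting at 37868389, 45139573 and 50719294. The other called genes of chromosome 16 were Gm609 (mean 2.18 against 0.0123 CPM, adjusted p = 0.0203), Gm49756 (0.0124 against 0.846 CPM, 0.000477) and 9430053O09Rik (−1.69 ± 0.39, 0.0395). Of these Gm609 starts at 45411768, near Slc35a5. On chromosome 17, near 79 Mb, the glutaminyl cyclase gene Qpct was higher at 15.9, 12.7, 13.6 and 16.6 CPM against 4.18, 5.32, 4.9 and 5.89 (1.54 ± 0.28, adjusted p = 0.00334). Its neighbour Gpatch11 was lower (−0.55 ± 0.09, 0.00142). Near 6.5 Mb, the dynein light chain gene Dynlt1b was lower (−0.90 ± 0.21, 0.047), and it has 3 relatives matching at least 98.8% of its transcript. Gm2808 beside it (−3.67 ± 0.49, 4.51e-05) matches Tulp4.

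Whether these genes follow the floxed allele was asked in the 33 libraries that the comparison did not use. Of these, 22 are labelled as fragments with both alleles (carriers) and 11 as fragments without the floxed allele. The carriers also have the Cre, the study uses their genotype as ILC2-deficient, and 4 of them had PBS in place of IL-33, so ILC2 genes differ in this contrast by design. The lesion-transfer libraries stood apart from the other libraries of the same fragment genotype for some of these transcripts. Gm6969 stood at 11.1 to 23.3 CPM in 4 lesions labelled as Cre fragments in deficient recipients, where the Cre controls had 0.667 to 1.74. It stood at 1.01 to 5.35 CPM in 4 lesions labelled as deficient fragments in Cre recipients, where IL-33-treated deficient lesions had 18 to 22.7. Gm7993 was at 4.04 to 7.3 and at 0.109 to 2.12 CPM in these groups. For these 2 transcripts the levels were nearer to those of the labelled recipient genotype. Others were mixed in the Cre fragments in deficient recipients, from deficient-like to near the Cre controls. There Zfp125 stood at 0.791, 2.85, 6.36 and 5.33 CPM and Rps7 at 50.7, 68.8, 103 and 86.1 CPM. In the deficient fragments in Cre recipients Zfp125 stood at 5.89 to 7.02 and Rps7 at 91.8 to 131 CPM. IL-33-treated deficient lesions had 1.75 to 2.52 and 56.5 to 81.4 CPM. In that direction the levels of Zfp125 and Rps7 were also nearer to those of the labelled recipient genotype. Why was not tested, and results are given with and without those 8 libraries.

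**Figure D2:**
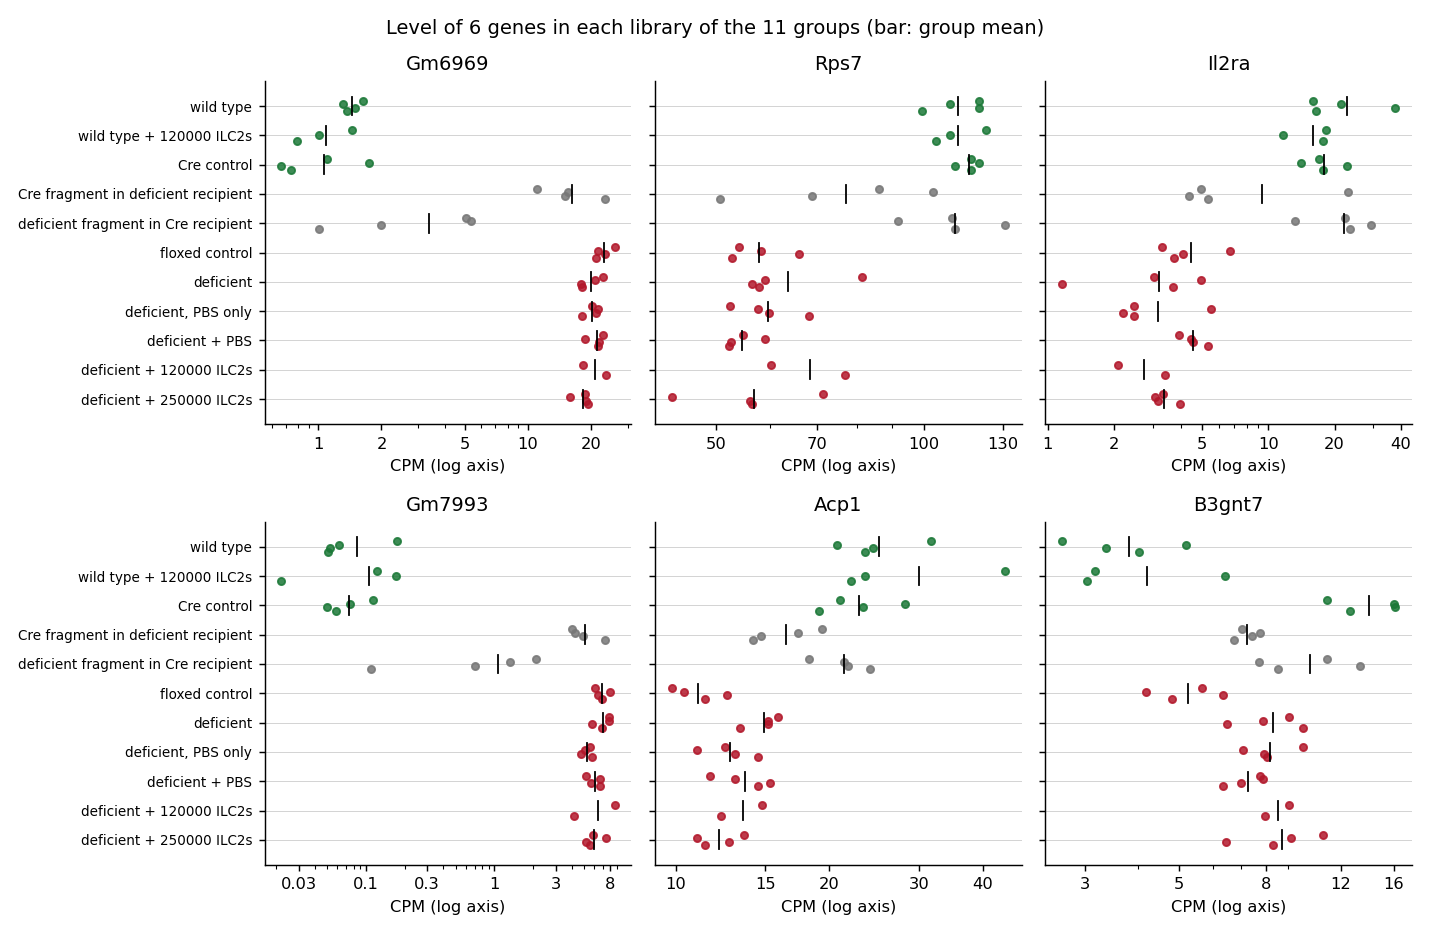
CPM (log axis) of 6 genes in each of the 41 libraries; green marks groups without the floxed allele, red groups with it and grey the lesion-transfer groups, and bars are group means. Gm6969, Gm7993, Rps7 and Acp1 separate green from red groups, and B3gnt7 is highest in the Cre controls. Il2ra is low in the red groups but not in the deficient fragments in Cre recipients (13.3 to 29.3 CPM).

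In that contrast 2288 genes passed (10.8%), and of the 70 called in Cre against floxed controls 52 passed with the opposite sign. For these the side labelled with the floxed allele was the higher, or the lower, in both contrasts. The sign alone does not single out that allele. The 52 include Il2ra, for which the floxed allele and ILC2 loss cannot be told apart in the carriers. Of the 70, 1 passed with the same sign (B3gnt7) and 17 did not pass. Without the lesion-transfer groups (18 against 7 libraries, an alternative chosen after seeing the data) 5320 genes passed (25%), and the split of the 70 was 63 opposite, 2 the same (B3gnt7 and Nat8f7) and 5 not passed. The 2288 fell to 409 without replicate 3 of the wild-type mice that received 120000 ILC2s, to 635 without replicate 4 of the wild-type group (both libraries with liver transcripts) and to 979 and 1398 without either of the 2 deficient libraries given 120000 ILC2s. Of the 19 genes near Id2, 18 passed with the opposite sign with the transfer groups and all 19 without. Gm6969 was higher in carriers by 2.34 ± 0.18 (adjusted p = 4.62e-10), and by 4.00 ± 0.25 without the transfer groups (3.04e-12). Rps7 was lower by 0.57 ± 0.08 (3.67e-05) and by 0.89 ± 0.10 (7.04e-08), and Acp1 by 0.68 ± 0.09 (4.13e-06) and by 1.03 ± 0.10 (1.06e-08). The 5 not passed without the transfer groups were Ch25h, Gpr84, Shox2, Pop4 and 9430053O09Rik.

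The single called gene beside Nmur1 was B3gnt7, which encodes a glycosyltransferase that builds keratan sulfate chains (chr1:86302832-86307305, ending before the Nmur1 locus starts). It stood at 12.6, 16.1, 16.0 and 11.1 CPM in Cre controls and at 4.8, 6.34, 4.17 and 5.64 in floxed controls. All Cre libraries were above all floxed ones, 2.66-fold on average (1.41 ± 0.22, adjusted p = 0.000283; 0.0658 in the fit of the 8 libraries alone). Wild-type lesions under IL-33 had 2.65 to 5.19 CPM, and the IL-33-treated deficient lesions, which also carry the Cre, had 6.46 to 9.79. In the independent libraries it was higher in the carriers of both alleles by 0.80 ± 0.12 (adjusted p = 6.07e-05). The non-carriers there include the Cre fragments in deficient recipients (6.74 to 7.73 CPM), which are labelled with the Cre. Without the transfer groups, where no non-carrier is labelled with the Cre, B3gnt7 was higher by 1.03 ± 0.15 (1.1e-05). B3gnt7 was thus higher in the groups labelled with the Cre, and the copy number or place of the Cre was not tested.

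Among the listed ILC2 genes, Il2ra alone passed the test. It encodes the high-affinity chain of the interleukin-2 receptor, found on activated lymphocytes, ILC2s and regulatory T cells. It stood at 17.7, 22.9, 14.1 and 17.0 CPM in Cre controls and at 3.74, 4.1, 6.68 and 3.28 in floxed controls, with no overlap and a 4.03-fold difference (2.01 ± 0.44, adjusted p = 0.0237). Wild-type lesions had 15.9 to 37.7 CPM and the IL-33-treated deficient lesions 1.16 to 4.94, a range that overlaps that of the floxed controls. The call rested on all groups sharing 1 estimate of spread: adjusted p was 0.0552 in the fit of the 8 libraries alone. It was 0.0604 and 0.0913 without replicate 1 or 2 of the Cre controls, and 0.129, 0.0807 and 0.124 without replicate 1, 2 or 4 of the floxed controls. In the libraries outside the comparison Il2ra was lower in carriers by 1.71 ± 0.22 (4.45e-06), and by 2.50 ± 0.26 without the transfer groups (3.09e-08). In both contrasts ILC2 loss and the floxed allele cannot be told apart. Deficient fragments in Cre recipients had 13.3 to 29.3 CPM. Cre fragments in deficient recipients had 5.31, 4.35, 23.1 and 4.93 CPM. The partner chains did not pass: Il2rb was at 8.87 to 10.7 against 5.32 to 7.59 CPM (0.58 ± 0.68, adjusted p = 0.743) and Il2rg at 0.54 ± 0.34 (0.47).

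Of the 20 measured ILC2 genes 17 had a positive difference and 3 did not (median 0.59, against 0.03 over all genes), with Il2ra as the 1 called. The IL-33 receptor gene Il1rl1 was at 69.7, 109, 19.9 and 27.6 CPM in Cre controls and at 12.4, 17.2, 21.9 and 20.1 in floxed controls. Replicates 1 and 2 of the Cre controls were high, replicate 3 lay within the floxed range and replicate 4 close above it. The groups thus overlapped, and the difference did not pass (1.66 ± 0.43, adjusted p = 0.0989). Without replicate 3 of the Cre controls, the lesion with liver transcripts, it did (1.94, adjusted p = 0.0264). The cytokine gene Il5 stood at 1.33, 1.78, 0.945 and 0.788 CPM against 0.605, 0.283, 0.562 and 0.486, and Il13 at 2.21, 3.56, 2.71 and 1.55 against 0.438, 1.05, 1.05 and 1.17. For both genes the groups were apart, but neither passed (1.31 ± 0.45 and 1.43 ± 0.49, adjusted p = 0.21 each). Wild-type lesions under IL-33 had 0.288 to 0.801 CPM of Il5 and 0.663 to 1.5 of Il13. These ranges overlap those of the floxed controls, and for Il5 the top also reaches the lowest Cre library. For Il1rl1 the wild-type lesions had 26.6 to 39.9 CPM, above the floxed range. Gata3, the lineage transcription factor, was at 6.22 to 8.77 against 4.92 to 7.65 CPM (0.41 ± 0.38, 0.656), and Klrg1 at 0.68 ± 0.43 (0.469). In bulk tissue fewer cells of a type and less RNA per cell cannot be told apart.

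No macrophage or eosinophil gene downstream of IL-13 passed. Of 25 measured type 2 response genes 19 had a positive and 6 a negative difference (median 0.47), and 0 passed. An unadjusted p under 0.05 was reached by 6 of them (14.5% over all genes). The eotaxin gene Ccl24 was at 32.9, 39, 22.1 and 12.2 CPM against 3.63, 9.34, 10.2 and 5.18, apart but with a narrow gap (1.90 ± 0.48, adjusted p = 0.0845; 0.0441 without replicate 4 of the Cre controls). Arg1 stood at 749, 1048, 612 and 284 CPM against 79.9, 271, 183 and 124 (2.03 ± 0.68, 0.21). Chil3 stood at 3946, 3549, 1198 and 3020 against 527, 1231, 1050 and 1217, with overlap (1.54 ± 0.91, 0.437). The chemokine gene Ccl17 was at 1.37 ± 0.57 (0.263) and the mannose receptor gene Mrc1 at 0.93 ± 0.33 (0.214). Retnla stood at 389 to 1046 CPM against 528 to 1440 (−0.21 ± 0.76, adjusted p = 0.933), and Chil4 ranged from 0.796 to 1894 CPM within the floxed controls (−0.73 ± 1.44, 0.867; 2.93 without replicate 2 of that group, its highest library). Col6a5, a collagen VI chain, was at 1618 to 2137 against 1526 to 2303 CPM (0.10 ± 0.48, 0.953), and Il33 itself at 0.62 ± 0.43 (0.522), with Ccl11 at 0.53 ± 0.34 (0.479). Of 7 eosinophil genes 5 were positive and 0 passed. They included Ear2 (0.63 ± 0.36, adjusted p = 0.42), Rnase2a (0.85 ± 0.71, 0.608), Siglecf (0.58 ± 0.34, 0.44) and Prg2 (−0.72 ± 0.63, 0.627).

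**Figure D3:**
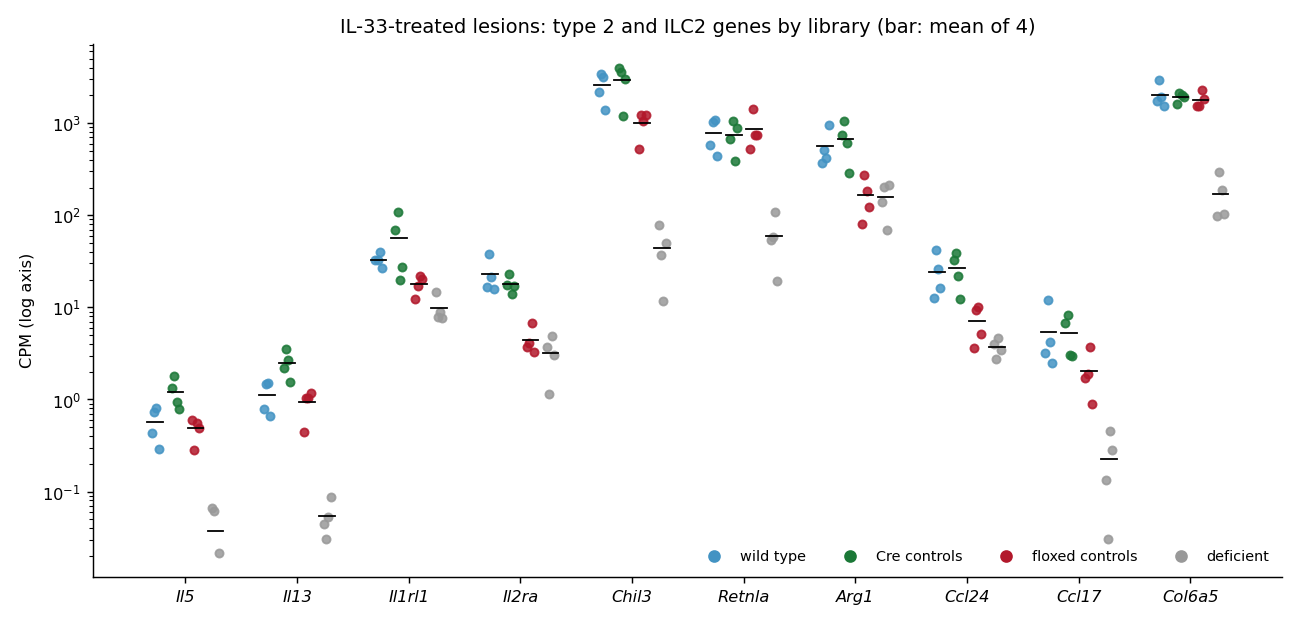
CPM (log axis) of 10 type 2 and ILC2 genes in the 4 libraries of each IL-33-treated genotype, with group means as bars. Il2ra is the 1 gene of the 10 called between Cre and floxed controls; for Retnla and Col6a5 the 2 groups overlap, and 1 deficient library with no Il5 count is not drawn.

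Away from chromosome 12, Gm15446 (5.58 ± 0.78, adjusted p = 7.09e-05) and Gm49980, which was not placed (3.94 ± 0.88, 0.0321), were among the 10 largest rises. Some protein-coding genes on chromosomes away from both loci were called, and of those described all but Ch25h, Adamts20 and Shox2 were chosen for description after their values were seen. Ch25h, which makes 25-hydroxycholesterol, was at 12.7, 22.4, 7.53 and 3.63 CPM in Cre controls and at 1.96, 1.9, 2.76 and 2.49 in floxed controls. The groups did not overlap, although replicate 4 of the Cre controls came close (2.34 ± 0.45, adjusted p = 0.00553; 0.0692 without replicate 2 of the Cre controls). Wild-type lesions had 2.06 to 3.74 CPM, a range near that of the floxed controls. Inhba, the activin A subunit gene, was at 78.3, 73.3, 41.5 and 34.4 CPM against 12.0, 18.7, 20.6 and 19.6 (1.68 ± 0.27, adjusted p = 0.000605), and passed without each of the 8 libraries in turn (at most 0.00761). Wild-type lesions had 27.9 to 35.7 CPM. Srgn, the proteoglycan of immune cell granules, was at 230, 227, 115 and 161 CPM against 48.2, 67.4, 83.5 and 56.2 (1.52 ± 0.34, 0.0315). The asparagine synthetase gene Asns was at 55.5, 63.6, 29.8 and 28.2 against 12.0, 21.6, 16.8 and 13.7 (1.47 ± 0.32, 0.0214), and the fatty acid receptor gene Gpr84 at 3.24, 3.93, 2.71 and 0.923 against 0.647, 0.34, 1.17 and 0.506, with overlap (2.01 ± 0.47, 0.0485). In these genes replicates 1 and 2 of the Cre controls had the highest levels, as for Il1rl1. Srgn lost its call without 5 of the 8 libraries (adjusted p = 0.0745 to 0.163, for replicates 1 and 2 of the Cre and 1, 2 and 4 of the floxed controls). Asns also lost it without 5 (0.054 to 0.136; Cre replicates 1 and 2, floxed replicates 1, 3 and 4) and Gpr84 without 6 (0.0733 to 0.169; all but Cre replicate 4 and floxed replicate 3).

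Other called genes were lower in Cre controls. Adamts20, a secreted metalloproteinase gene, was at 2.89, 6.0, 1.67 and 2.7 CPM in Cre controls and at 27.3, 21.3, 20.1 and 16.4 in floxed controls (−2.68 ± 0.63, adjusted p = 0.0489). Wild-type lesions had 2.1 to 4.86 CPM and IL-33-treated deficient lesions 2.87 to 11.7. Deficient lesions given IL-33 and PBS had 11.3 to 19.1 CPM and those given 250000 ILC2s 3.05 to 22.9, ranges that overlap that of the floxed controls. The call was lost without any library other than replicate 2 of the Cre controls (0.0675 to 0.231). Shox2, a homeobox gene, was at 0.148 to 0.413 CPM in Cre controls and at 0.877, 0.792, 3.61 and 0.749 in floxed controls (−2.48 ± 0.57, 0.0395). Its highest value came from replicate 3, the lesion low in uterine markers, and without that library it did not pass (−1.58, adjusted p = 0.194); without Cre replicates 1 to 4 it did not pass either (0.0681 to 0.157). Hgsnat, a lysosomal acetyltransferase gene, was higher in Cre controls (0.92 ± 0.19, adjusted p = 0.0115), as were Adss (0.57 ± 0.13, 0.0321), Pop4 (0.44 ± 0.09, 0.0118), Ahcyl1 (0.38 ± 0.08, 0.0186) and Pcbp2 (0.35 ± 0.08, 0.0271). On distant parts of chromosome 12, Vcpkmt was lower (−0.72 ± 0.13, 0.00172) and Snapc1 higher (0.41 ± 0.09, 0.0326). Nat8f7 was lower (−2.06 ± 0.43, 0.0152) and Stard6 higher (1.58 ± 0.31, 0.00823).

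Clock genes were examined because collection time is not labelled and the core clock runs in opposite phases through the day. BMAL1 (gene Arntl), NPAS2 and CLOCK switch on the period, cryptochrome, Nr1d and Dbp genes, which feed back on them. None of 21 measured clock genes passed, and 6 had an unadjusted p under 0.05 (14.5% over all genes). The median of the list was −0.14. The activators had positive differences. Arntl stood at 24.3, 25.2, 30.6 and 25.8 CPM against 16.0, 26.5, 15.2 and 17.9 (0.49 ± 0.15, adjusted p = 0.206), Npas2 at 0.56 ± 0.19 (0.21) and Clock at 0.33 ± 0.11 (0.21). Of their outputs named here, all but Per1 had negative ones. Dbp stood at 42.1, 54.3, 46.8 and 37.6 CPM against 114, 63.1, 101 and 101, with no overlap (−1.07 ± 0.28, 0.0943). Per3 stood at 77.6, 86.9, 68.9 and 63.7 CPM against a mean of 120 ± 21.7 (SD, n = 4), with no floxed library below 95 CPM (−0.69 ± 0.19, 0.126), and Tef at −0.57 ± 0.29 (0.359). Nr1d1 (−0.51 ± 0.34, 0.497) and Nr1d2 (−0.41 ± 0.21, 0.362) also had negative differences. For Arntl and Nr1d1 the groups overlapped. Overlap was also found for Per1 (0.43 ± 0.35, 0.586), Per2 (−0.14 ± 0.24, 0.84), Cry1 (−0.20 ± 0.16, 0.592), Cry2 (−0.33 ± 0.22, 0.505) and Ciart (−0.18 ± 0.24, 0.782).

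**Figure D4:**
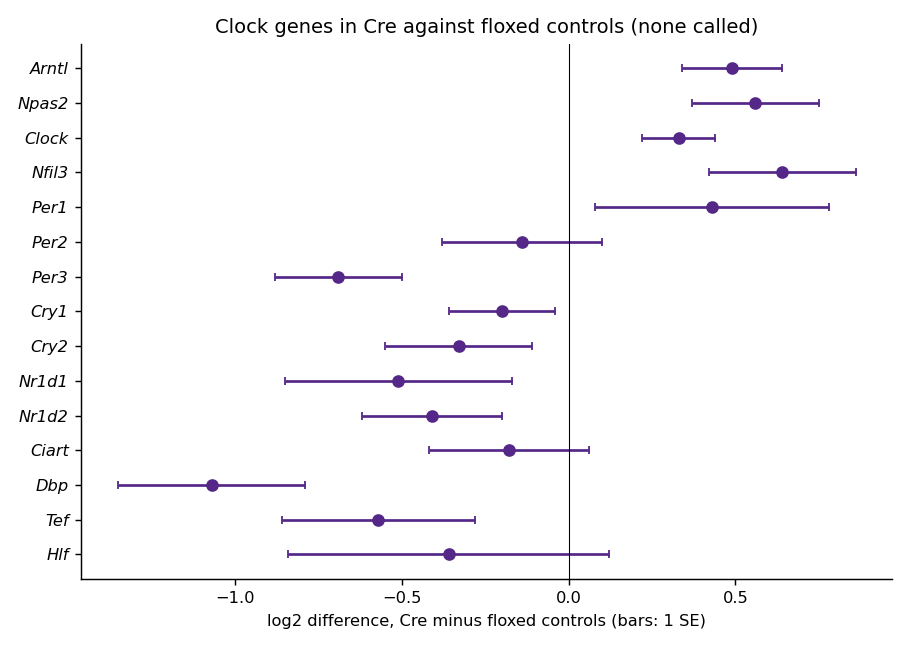
Log2 difference, Cre minus floxed controls, of 15 clock genes with 1 standard error from edgeR's fit. The activators Arntl, Npas2 and Clock lie above 0 and the outputs Per3, Dbp and Tef below it; Dbp is lowest at −1.07, and none of the 15 passed the test.

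Among the remaining lists the 1 called gene was Cox7a2l, among 7 substrain markers. In that list Nnt, whose deletion marks the C57BL/6J substrain, was at 5.3 to 6.89 CPM against 5.32 to 7.89 (−0.10 ± 0.17, adjusted p = 0.837), and Wdfy1 at −0.38 ± 0.11 (0.156). Skeletal muscle had the most uniform difference. All 16 of its genes had negative differences (median −1.80), 13 with every floxed library above every Cre library (6.12% over all genes). Yet 0 passed and 0 had an unadjusted p under 0.05 (14.5% over all genes). The muscle share of counts was 2.56%, 7.83%, 0.0128% and 6.08% in Cre controls and 13.7%, 13.3%, 8.95% and 8.86% in floxed controls. Muscle content thus moved with the genotype, and its part in the other differences was not tested. All 12 inflammatory cytokine genes had positive differences (median 1.08), 8 with an unadjusted p under 0.05 (14.5% over all genes) and 0 called. They included Il6 (1.54 ± 0.63, adjusted p = 0.258) and Cxcl1, whose highest value, 10.9 CPM, came from the Cre lesion with liver transcripts. Mesothelium genes, which mark the lining of the abdominal cavity, were positive in 8 of 9 (median 1.29). In 6 every Cre library was above every floxed one (3.4% over all genes). Their summed share of counts overlapped, at 0.0178% to 0.025% in Cre and 0.00667% to 0.0255% in floxed controls, highest in floxed replicate 2. The mucin gene Muc16 stood at 16.7, 10.2, 26.6 and 38.5 CPM against 3.59, 2.6, 5.34 and 4.57, with no overlap (2.51 ± 0.79, adjusted p = 0.2).

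No gene of the matrix, myeloid, lymphoid or uterine lists passed. Of 22 matrix genes 15 were positive (median 0.11). The proteoglycan gene Lum stood at 500, 414, 294 and 280 CPM against 136, 102, 270 and 239 (1.00 ± 0.28, adjusted p = 0.145), while the collagen genes Col1a1 and Col3a1 were at −0.30 and −0.19. Macrophage and monocyte genes were positive in 16 of 16 (median 0.40, 2 with an unadjusted p under 0.05, against 14.5% over all genes). Neutrophil genes were positive in 10 of 11 (median 0.81, 3 under 0.05), with 0 called in each list. Resident peritoneal macrophage genes were positive in 10 of 12 (median 0.70), 7 with an unadjusted p under 0.05 (14.5% over all genes) and 0 called. No member had its groups apart. They took 0.72% to 1.28% of counts in Cre controls and 0.348% to 0.797% in floxed controls, most of it from Fn1 (0.90 ± 0.31, adjusted p = 0.21); their part in the macrophage gene differences was not tested. Medians were −0.04 for interferon response, −0.14 for proliferation, 0.13 for endometrial stroma, −0.24 for endometrial epithelium and −0.09 for T cell genes. The regulatory T cell genes Foxp3 (0.73 ± 0.58, adjusted p = 0.584) and Ctla4 (1.39 ± 0.61, 0.291), whose cells also use Il2ra, did not pass. All 9 mitochondrial transcripts had negative differences (median −0.31) and all 8 blood genes positive ones (median 0.85), again with 0 called. The 14 liver genes had a median of 14.15, set by replicate 3 of the Cre controls alone.

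**Figure D5:**
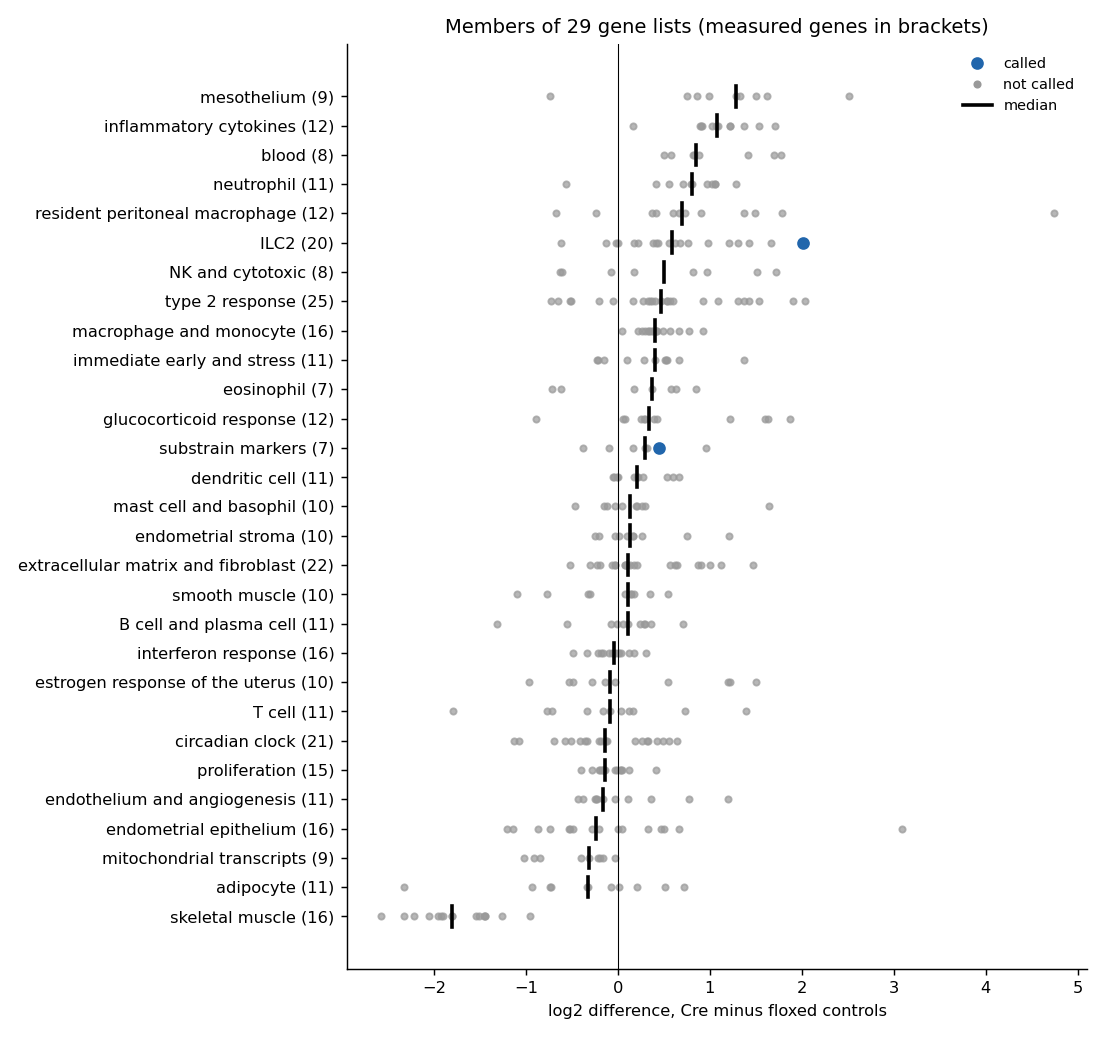
Log2 difference, Cre minus floxed controls, of the measured members of the gene lists, ordered by list median (black bars); the liver list is left out because 1 library sets it. Blue points are called genes, Il2ra and Cox7a2l; the muscle list lies lowest (median −1.80) and the mesothelium list highest (1.29).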

How the data were processed

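RNA from snap-frozen lesions was sequenced in bulk. The deposited table holds raw counts per gene, made by the authors for 21249 genes in 41 libraries. Per the submitters' processing notes, Trimmomatic, STAR, HTSeq, edgeR and limma were used with GRCm38; versions, annotation and strand setting are not given in the sources used here. Groups came from the sample titles.

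The counts were fitted with edgeR 4.0.16 (R 4.3.3; TMM factors, robust quasi-likelihood, 11 group means over 41 libraries), and p-values were adjusted by Benjamini-Hochberg over all 21249 genes with a threshold of 0.05. Values after ± are standard errors for log2 differences and SDs for CPM. A contrast of carriers with non-carriers used the other 33 libraries. Adjusted p-values come from edgeR unless another tool is named. The test was also run on simulated counts with the same spread for every gene and changes only in well-counted genes. That run does not check genes with few counts. Alternatives were limma-voom (limma 3.58.1), DESeq2 1.42.0, RLE size factors, at least 1 CPM in 4 libraries, the 8 libraries alone, a replicate block, and libraries left out.

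Named genes were a panel, the 10 largest rises and falls among called genes with groups apart and a group mean of at least 1 CPM, up to 4 passing members per list, and called genes within 10 Mb of Id2 or Nmur1. Those with Gm or Rik symbols were counted and only in part described. Other genes named were chosen after their values were seen. The members and lists were chosen with earlier results of these data known. Replicate numbers did not pair the samples.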

Additional observations from a re-analysis of the deposited data

Results flagged for a closer look

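Of 192 groups of 4 libraries examined (4 libraries of 1 genotype for 1 gene), 12 (6.25%) had 1 library far from the other 3 by Dixon's test. The test's cutoff is set so that chance gives that in about 1 of 20 independent groups, and the number is near that rate. These groups come from selected genes in the same 8 libraries, so the rate cannot show which flags are chance. In the floxed controls these were Chil4 in replicate 2 (1894 CPM), Adss in replicate 2 (55.5 CPM), Shox2 in replicate 3 (3.61 CPM) and Lrrc58 in replicate 3 (239 CPM). In the Cre controls they were Alb (38320 CPM), Tulp4 (140 CPM), Vcpkmt (4.28 CPM), 1700030C10Rik (3.06 CPM) and Gm49756 (0.0497 CPM) in replicate 3, Gm40847 in replicate 2 (0.0247 CPM), Ahcyl1 in replicate 1 (178 CPM) and Stard6 in replicate 4 (1.44 CPM).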

How the results depend on the processing

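The 70 calls between Cre and floxed controls were 225 with DESeq2, which held all 70, and 20 in the fit of the 8 libraries alone; without each library in turn they ranged from 45 to 70. With the replicate block 1 gene passed and none near Id2 (2255 genes had an unadjusted p under 0.05). Deviations of same-numbered libraries correlated at −0.065 to 0.042. The 19 calls near Id2 were 8 in the 8 libraries alone, 23 with DESeq2 and 16 to 19 without each library. The 2288 calls between carriers and non-carriers were 941 with limma-voom, 368 without libraries with liver transcripts and 5320 without the transfer groups, and ranged from 409 to 3253 without each library; the cause was not tested. Differences near 0 changed sign. Id2 was −0.01 with RLE size factors, DESeq2 or the 8 libraries alone, −0.04 with limma-voom, −0.05 with the replicate block, −0.20 without liver libraries or without Cre replicate 3, and −0.06 and −0.01 without floxed replicates 1 and 2. Without each library Nmur1 ran from −0.03 to 1.37, Chil4 from −1.37 to 2.93 and Retnla from −0.41 to 0.15. Nmur1 was −0.03 without Cre replicate 4, and Retnla 0.01 without liver libraries or Cre replicate 3 and 0.15 without floxed replicate 2. Chil4 was 2.33 with limma-voom, 2.37 with the replicate block and 2.93 without floxed replicate 2.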
